A study of Mus musculus with 14 samples.

Results

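The keratin family was examined in the ovaries and uteruses of aged mice. Its members were all genes whose GENCODE M21 symbol is Krt followed by a number, which gave 53 of the 21853 protein-coding genes of the expression table. Of these, 28 encode type I (acidic) and 25 type II (basic) keratins, 27 lie on chromosome 11 and 26 on chromosome 15, and no symbol was shared with another gene. The measured values did not enter the choice of members. The animals were female C57BL/6J mice aged 28 weeks. The 4 OT mice had been given conditioned medium of human amniotic membrane-derived mesenchymal stem cells (AMSC-CM) into the tail vein, 1 µL per g in 6 injections spaced 4 days apart, and the 3 OC mice had been given saline. Mice of both groups had also received PMSG and then hCG, 10 IU each and 48 h apart, so the controls carried this hormone treatment too. The conditioned medium was pooled from 3 donors. The ovary and the uterus of each mouse gave a library of rRNA-depleted, stranded total RNA, so there were 14 libraries, 7 per tissue, named OC1 to OC3 and OT1 to OT4. The values are FPKM (fragment counts divided by transcript length and by library size), so levels can be compared between genes.

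Keratins are the intermediate filament proteins of epithelial cells. A filament is built from pairs of a type I and a type II keratin, so an epithelium makes its keratins in pairs. Krt8 (type II) and Krt18 (type I) form the pair of simple, single-layered epithelia, where Krt7 and Krt19 are their usual companions, and the luminal and glandular epithelium of the uterus and the surface epithelium of the ovary are of this kind. Krt5 (type II) and Krt14 (type I) form the pair of the basal layer of stratified epithelia, such as the lining of the vagina and the outer cervix. Krt4 and Krt13 are the pair of the layers above it in mucosal stratified epithelia, Krt1 and Krt10 those of the epidermis, and Krt6a, Krt6b, Krt16 and Krt17 are made by activated keratinocytes and skin appendages. Type II Krt71 to Krt73 and type I Krt25 to Krt28 belong to the inner root sheath of the hair follicle, and a further set of hair keratins to the hair shaft and the nail.

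The depth of the libraries is unknown, because FPKM is already divided by it. The commonest ratio between the lowest values put the depth at 0.761 to 1.10 of that of the OC1 uterus library. The granulosa and luteal genes summed to 3530 to 4557 FPKM in the OC ovaries and to 7.43 to 22.9 FPKM in the uteruses. The smooth muscle genes summed to at least 7797 FPKM in every uterus and to 884 to 2765 FPKM in the ovaries. By these lists the libraries matched their labelled tissues, and genes of other tissues found in them are given below. Several libraries stood apart in markers of other cells. The summed level of 8 adipocyte genes was 69.1 to 261 FPKM in the OC uteruses and at least 1277 FPKM in the OT uteruses, up to 11583 FPKM in OT1, and 159 to 274 FPKM in the OC ovaries against 1781 and 1292 FPKM in the OT1 and OT2 ovaries. The OT1 uterus also held the bladder genes Upk2 (16.2 FPKM) and Upk3a (48.7 FPKM), which were listed at 0 to 0.149 FPKM in the other 6 uteruses. In bulk tissue, fewer cells of a type and less RNA per cell cannot be told apart.

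Most of the family was barely detected. There were 11 members at 0 in all 14 libraries, 32 never above 0.5 FPKM in the uterus and 39 never above 0.5 FPKM in the ovary. Of the 22 hair and inner root sheath keratins, 20 never passed 0.5 FPKM in any library, the exceptions being Krt83 and Krt87. A mean of at least 0.5 FPKM, the limit for testing, was reached by 19 members in the uterus and by 8 in the ovary, and the 8 of the ovary (Krt7, Krt8, Krt10, Krt18, Krt19, Krt23, Krt80 and Krt83) were all among the 19. In the uterus, 7 of the 19 had a mean under 0.5 FPKM in the OC group and passed the limit through the OT libraries alone, so that a difference was built into their selection. For that reason the counts below are given over all 53 members.

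To see whether AMSC-CM was accompanied by a change of the epithelial keratins, the OT and OC uteruses were compared first. Of the 22 keratins of stratified epithelium, 7 were higher in the OT uteruses by unadjusted p, and no simple keratin passed as higher. Of the 53 members, 7 passed the cutoffs (at least a 2-fold change and an unadjusted p of at most 0.05 by limma) as higher in OT, namely Krt4, Krt5, Krt6a, Krt6b, Krt13, Krt14 and Krt15, and 1 as lower, Krt23. Among all 14151 genes tested in the uterus, 2.23% passed as higher and 0.664% as lower. After Benjamini-Hochberg adjustment by limma no keratin and none of the 14151 genes was below 0.05, a share of 0% (1160 genes had an unadjusted p under 0.05), and the smallest adjusted p of a keratin was 0.357. Without the limit on low values, 10 of the 53 members and 1.49% of all 21853 genes passed as higher.

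The basal keratin Krt5 (chr15:101707070-101712898, mm10) measured 0.457, 2.81 and 0.357 FPKM in OC1, OC2 and OC3, and 37.1, 11.7, 299 and 159 FPKM in OT1 to OT4. Every OT uterus was above every OC uterus, but the OT libraries themselves spanned a 25.5-fold range, with OT3 and OT4 far above OT1 and OT2. The log2 fold change on log2(FPKM + 0.1) was 6.22 ± 1.13 (SE), the largest of the 14151 tested genes, with an unadjusted p of 0.000561 and an adjusted p of 0.357 by limma. Its partner Krt14 (chr11:100203162-100207548) measured 0.277, 0.730 and 0.255 FPKM in the OC uteruses and 9.12, 2.66, 60.2 and 25.9 FPKM in OT1 to OT4. The order of the OT libraries was that of Krt5, and the groups did not overlap. Its log2 fold change was 4.88 ± 0.95 (SE), with an unadjusted p of 0.000860 and an adjusted p of 0.357 by limma.

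Krt15 (chr11:100131758-100135928), a type I keratin of basal cells without a partner of its own, measured 0.548, 0.730 and 0.167 FPKM in the OC uteruses and 2.82, 4.25, 141 and 46.1 FPKM in OT1 to OT4. Within the OT group it was 49.8 times higher in OT3 than in OT1. Its log2 fold change was 5.02 ± 1.31 (SE), with an unadjusted p of 0.00485 and an adjusted p of 0.485 by limma.

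The suprabasal mucosal pair moved in the same libraries. Krt13 (type I, chr11:100117327-100121566) measured 1.86, 5.10 and 0.423 FPKM in OC1 to OC3 and 29.7, 19.6, 287 and 132 FPKM in OT1 to OT4. Krt4 (type II, chr15:101918535-101924735) measured 0, 0.871 and 0.209 FPKM in the OC uteruses and 1.89, 1.39, 27.99 and 10.0 FPKM in OT1 to OT4. Neither gene overlapped between the groups, and OC2 was the highest OC uterus for both, as it was for Krt5, Krt14, Krt15 and Krt6a. Krt13 was higher by a log2 fold change of 5.30 ± 1.06 (SE; unadjusted p = 0.00104, adjusted p = 0.357 by limma) and Krt4 by 4.11 ± 1.15 (SE; unadjusted p = 0.00698, adjusted p = 0.499 by limma). The other keratins of suprabasal and corneal layers did not pass the cutoffs. Krt12, the keratin of the corneal epithelium, measured 0.0703 to 2.02 FPKM in OC and 0.547 to 2.03 FPKM in OT uteruses. Krt10, the epidermal suprabasal keratin, measured 3.18 to 4.01 FPKM in OC and 2.52 to 4.89 FPKM in OT uteruses, with a log2 difference of 0.10 ± 0.26 (SE), while its usual partner Krt1 did not exceed 0.256 FPKM in any uterus. Krt2, Krt76, Krt77 and Krt78 stayed at or below 0.151 FPKM in the uterus, and Krt9 and Krt24 were at 0 there.

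Of the keratins of activated keratinocytes, Krt6a (chr15:101689910-101694307) measured 0.0522, 0.428 and 0 FPKM in OC1 to OC3 and 6.94, 1.25, 32.5 and 17.9 FPKM in OT1 to OT4. The lowest OT uterus was again OT2 and the highest OT3. The log2 fold change was 5.43 ± 1.07 (SE; unadjusted p = 0.000948, adjusted p = 0.357 by limma). Its near copy Krt6b (chr15:101676023-101680287) measured 0, 0.0616 and 0 FPKM in OC and 1.34, 0.0595, 1.77 and 0.728 FPKM in OT uteruses, so the groups overlapped at OT2. It passed the cutoffs with a log2 fold change of 2.72 ± 0.94 (SE; unadjusted p = 0.0202, adjusted p = 0.550 by limma), but 44.5% of the 50-base stretches of its transcripts also occur in those of Krt6a, so the split of fragments between these neighbours is uncertain. Krt17 measured 0.713, 0.456 and 0.0974 FPKM in OC and 0.358, 0.519, 6.45 and 2.74 FPKM in OT1 to OT4. Only OT3 and OT4 were above the OC range, and the log2 difference of 1.76 ± 0.99 (SE) did not pass the cutoffs. Krt16, the other type I keratin of this class, did not exceed 0.0879 FPKM, and Krt42 was at 0. Krt80, a type II keratin of broad distribution, measured 2.204 to 5.24 FPKM in OC and 3.49 to 7.59 FPKM in OT uteruses, with a log2 difference of 0.45 ± 0.39 (SE).

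**Figure D1:**
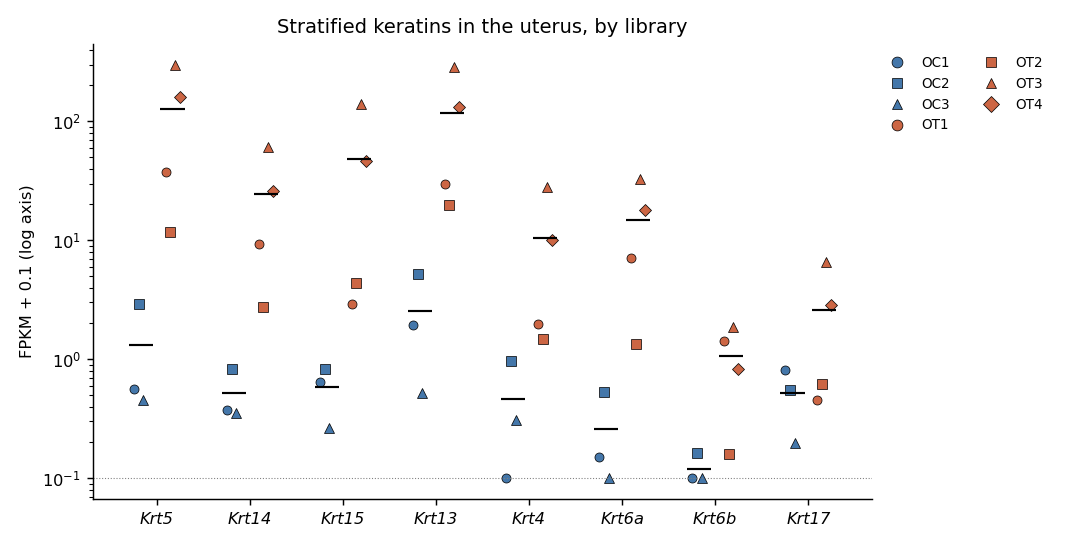
FPKM + 0.1 on a log axis for 8 keratins of stratified epithelium, with each of the 3 OC (blue) and 4 OT (orange) uteruses as a symbol, the group mean as a black bar and a dotted line at 0 FPKM. For Krt5, Krt14, Krt15, Krt13, Krt4 and Krt6a all 4 OT uteruses lie above all 3 OC uteruses and OT3 is the highest, whereas Krt6b and Krt17 overlap.

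Leaving out OT3 and OT4, an alternative added after the values were seen, kept Krt5 (log2 fold change 4.54), Krt6a (3.94), Krt13 (3.79), Krt14 (3.39) and Krt15 (2.77) past the cutoffs, while Krt4 (2.47) had an unadjusted p of 0.0542 by limma. Fitting all 14 libraries at once gave an adjusted p under 0.05 by limma for Krt5 (0.0278), Krt6a (0.0298), Krt13 (0.0298) and Krt14 (0.0380), the fold changes being the same by construction. That fit takes 1 spread per gene from both organs, although these keratins had means under 0.5 FPKM in the ovaries (Krt5 at 0 to 0.127 FPKM), and has no term for the mouse that an ovary and a uterus share.

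Promoter sequences were taken from RefSeq (GRCm38.p6) for the stratified keratins Krt5 and Krt13, which moved together, and for Krt8, Krt18 and Krt23, simple keratins not called higher, so that the letters near their starts can be set side by side. Each run is printed 5′ to 3′ on the strand of the gene and ends at the start site of the gene, or before it where the RefSeq and GENCODE starts differ. Capitals mark matches on either strand to TGANTCA (AP-1), GCCNNNGGC (AP-2), CCACCC (KLF factors), AACCGGTT (GRHL factors) or TATAAA, and to ATAAA on the gene strand between 40 and 15 bases before the RefSeq start (TATAAA contains ATAAA, so these matches can overlap).
Krt5, chr15:101712906-101713155, minus strand: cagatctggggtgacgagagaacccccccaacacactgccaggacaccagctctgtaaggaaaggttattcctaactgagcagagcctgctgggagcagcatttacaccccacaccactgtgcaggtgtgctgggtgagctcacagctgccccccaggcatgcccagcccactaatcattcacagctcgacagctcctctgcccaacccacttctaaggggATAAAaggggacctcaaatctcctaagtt
Krt13, chr11:100121567-100121816, minus strand: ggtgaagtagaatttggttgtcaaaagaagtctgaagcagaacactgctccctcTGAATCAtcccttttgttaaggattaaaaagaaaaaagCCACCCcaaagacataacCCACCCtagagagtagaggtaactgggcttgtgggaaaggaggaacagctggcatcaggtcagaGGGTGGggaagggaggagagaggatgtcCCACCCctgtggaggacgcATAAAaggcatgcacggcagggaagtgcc
Krt8, chr15:102004483-102004592, minus strand: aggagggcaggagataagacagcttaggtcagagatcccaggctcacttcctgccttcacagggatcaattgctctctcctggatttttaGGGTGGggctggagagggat
Krt18, chr15:102027966-102028179, plus strand: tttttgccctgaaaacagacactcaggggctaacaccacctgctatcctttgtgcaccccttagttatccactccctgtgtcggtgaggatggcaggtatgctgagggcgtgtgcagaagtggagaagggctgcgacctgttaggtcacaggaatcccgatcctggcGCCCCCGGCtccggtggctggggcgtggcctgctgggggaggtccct
Krt23, chr11:99493138-99493370, minus strand: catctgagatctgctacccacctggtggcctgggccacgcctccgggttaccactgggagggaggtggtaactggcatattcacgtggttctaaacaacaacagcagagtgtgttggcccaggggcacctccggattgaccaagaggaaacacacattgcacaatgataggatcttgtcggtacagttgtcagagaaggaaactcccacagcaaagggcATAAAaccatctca

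ATAAA stood 29 bases before the RefSeq start in both Krt5 and Krt13 and 31 bases before it in Krt23, a gene that was lower in OT, so it was not shared by the genes of a single direction. It was found in this window in 20 of 37 keratin promoter entries and in 4.25% of all 32851 entries. The Krt13 promoter also held 1 AP-1 match (TGAATCA) and 4 matches to CCACCC or its reverse complement. Of all entries of 250 bases, 6.75% and 28.1% held at least 1 such match. The share of entries with 4 matches was not counted. The Krt18 sequence held an AP-2 match (GCCCCCGGC), found in 13.7% of all entries, and that of Krt8 a single KLF match. AACCGGTT was in none of the 37 keratin entries and in 0.116% of all, and TATAAA in 17 of 37 keratin entries and in 12.4% of all. These are matches of letters and say nothing of binding. The Krt8 and Krt18 runs are shorter because their RefSeq starts lie 140 and 36 bases downstream of the GENCODE starts.

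The structural partners of the stratified keratins were looked up in lists chosen with earlier results of these data known. Among all 14151 genes tested in the uterus, 2.23% passed the cutoffs as higher and 0.664% as lower. Of the 21 desmosome and hemidesmosome genes, of which 17 reached the limit of 0.5 FPKM in the uterus, 4 were higher and none lower at the cutoffs. They were Pkp1 (log2 fold change 3.90), the desmosomal plaque protein of suprabasal cells, Col17a1 (2.85), the collagen of hemidesmosomes, Perp (1.202), a membrane protein of desmosomes, and Evpl (1.18), which binds keratins to the desmosome. Col17a1 was 0.127 to 0.302 FPKM in OC uteruses and 0.383, 0.597, 15.1 and 5.97 FPKM in OT1 to OT4. As for Krt15, OT3 and OT4 were far above OT1 and OT2. Of 16 squamous transcription factors, 14 of them over the limit, 3 were higher, Grhl3 (3.11), Trp63 (2.87) and Zfp750 (2.37), and none lower. Trp63, the master regulator of basal keratinocytes, measured 0.331, 0.774 and 0.263 FPKM in OC uteruses and 4.40, 0.776, 10.1 and 4.90 FPKM in OT1 to OT4. OT2 thus lay at the level of OC2. Of 19 cornified envelope genes, 8 of them over the limit, 4 were higher, Sprr1a (5.10), Ly6d (4.65), Calml3 (2.56) and Sfn (1.37), and none lower. Of the genes named as higher, Pkp1, Col17a1, Grhl3 and Trp63 had OC means under the limit and entered the test through their OT values. Col17a1 and Trp63 were highest in OT3, as the keratins were. The order of Sprr1a and Ly6d differed from that of the keratins, since they were highest in OT1 (139 and 83.6 FPKM). The genes of terminal cornification Flg, Sprr3 and Cnfn were at 0 in every uterus, and Lor did not exceed 0.386 FPKM.

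Among the 13 general epithelial genes counted here, Cldn3, a claudin, was lower (log2 fold change −1.23), and the median was −0.51, against 0.01 over all tested genes. Cdh1 (E-cadherin) measured 28.7 to 53.6 FPKM in OC and 10.8, 29.5, 25.2 and 32.7 FPKM in OT1 to OT4. The median of the 9 endometrial epithelium genes counted was −0.64, and their sum was 207 to 312 FPKM in OC and 39.8, 403, 258 and 289 FPKM in OT1 to OT4, so that OT1 alone lay below the OC range. Hoxa13, the Hox gene of the lowest reproductive tract, was looked up after the keratin values had been seen. It measured 0.443, 0.609 and 1.98 FPKM in the OC uteruses and 6.70, 0.958, 7.55 and 2.47 FPKM in OT1 to OT4, so that OT2 fell inside the OC range and OT1 was nearly as high as OT3. The uterine Hox genes Hoxa10 and Hoxa11 went the other way, with every OT uterus below every OC uterus. Hoxa10 was 214 to 236 FPKM in OC and 138 to 186 FPKM in OT uteruses, and Hoxa11 64.4 to 73.2 FPKM and 41.7 to 60.1 FPKM. All 8 adipocyte genes were higher in the OT uteruses at the cutoffs, where 2.23% of all tested genes were. They were led by Plin1 (4.27), Cidec (4.19), Cfd (4.003) and Fabp4 (3.98), with OT1 the highest library, in which Krt5 was lower than in OT3 and OT4. The part of these other tissues in the keratin differences was not tested.

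The remaining lists give the background of the uterus libraries. None of 7 smooth muscle, 7 endometrial stroma, 7 oviduct, 5 skeletal muscle, 5 oocyte, 7 hair follicle, 7 estrogen response and 7 proliferation genes passed the cutoffs, although only 4 of the oviduct, 3 of the skeletal muscle, 1 of the oocyte and 2 of the hair follicle genes reached the limit. For 3 of the 7 endometrial stroma genes every OT uterus was nevertheless below every OC uterus, where 5.48% of all tested genes were. For 4 of the 7 smooth muscle genes every OT uterus was above, where 6.46% of all tested genes were. In the granulosa and luteal list 1 of 8 genes was lower, Cyp11a1 (−1.18), where 0.664% of all tested genes were lower. The summed smooth muscle level was 7797 to 9145 FPKM in OC and 9599 to 14536 FPKM in OT uteruses, where OT3 was the highest. The hair follicle list summed to 1.95 to 2.83 FPKM in OC and 1.65 to 3.48 FPKM in OT uteruses, with the defining genes Hoxc13 and Krt27 at 0 in all 7.

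Of the simple keratins, Krt8 (chr15:101996698-102004482) measured 69.9, 43.2 and 33.8 FPKM in OC1 to OC3 and 42.3, 51.7, 22.8 and 33.1 FPKM in OT1 to OT4. Its partner Krt18 (chr15:102028180-102032027), which lies next to it, measured 75.5, 116 and 94.5 FPKM in OC and 65.5, 104, 45.8 and 95.2 FPKM in OT uteruses. For both, OT3 was the lowest of the 7 uteruses, the library in which the stratified keratins peaked, and the other OT values lay within or near the OC range. The log2 differences were −0.38 ± 0.33 (SE; unadjusted p = 0.275 by limma) and −0.35 ± 0.29 (SE; unadjusted p = 0.274 by limma). Of the 50-base stretches of Krt8, 26.9% recur in the pseudogene Krt8-ps, so part of its signal is uncertain.

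Krt7 (chr15:101411043-101430313), a type II companion of Krt8 in ducts and glands, measured 10.1, 22.7 and 25.6 FPKM in OC and 40.8, 26.7, 26.9 and 33.4 FPKM in OT1 to OT4. All OT uteruses were above all OC uteruses, by a narrow margin between OC3 and OT2. The log2 difference was 0.80 ± 0.32 (SE; unadjusted p = 0.0394, adjusted p = 0.596 by limma), under the 2-fold limit. Krt7 was thus the seventh keratin whose groups did not overlap, beside Krt4, Krt5, Krt6a, Krt13, Krt14 and Krt15, where 6.46% of all tested genes had the OT uteruses above the OC uteruses. Krt19 (chr11:100140810-100148665), the smallest type I keratin, measured 103, 24.9 and 20.8 FPKM in OC1 to OC3 and 93.8, 122, 39.5 and 22.2 FPKM in OT1 to OT4. It was high in OC1, OT1 and OT2 and low in the others, so each group held both levels, and the log2 difference was 0.58 ± 0.72 (SE). The mesothelial genes Msln and Upk3b were high in OT1 (27.4 and 60.8 FPKM) and OT2 (43.2 and 56.8 FPKM), but not in OC1 (8.38 and 13.8 FPKM). Of 7 mesothelium genes 1, Bnc1 (1.05), passed the cutoffs as higher, where 2.23% of all tested genes did. The part of mesothelium in the Krt19 level was not tested.

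Krt20 (chr11:99428403-99438150), a keratin of intestinal, taste and bladder surface epithelium, was above 0.5 FPKM in a single uterus. It measured 6.74 FPKM in OT1 and 0 to 0.236 FPKM in the other 6. OT1 was also the library with uroplakins, and the 7 genes of the urothelium list, Krt20 included, summed to 208 FPKM there, 26.5 FPKM in OT2 and 5.17 to 8.35 FPKM in the other 5. At the cutoffs only Psca (4.04) of these 7 was higher, where 2.23% of all tested genes were higher. The log2 difference of Krt20 was 1.26 ± 1.41 (SE). The contribution of bladder tissue was not tested.

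**Figure D2:**
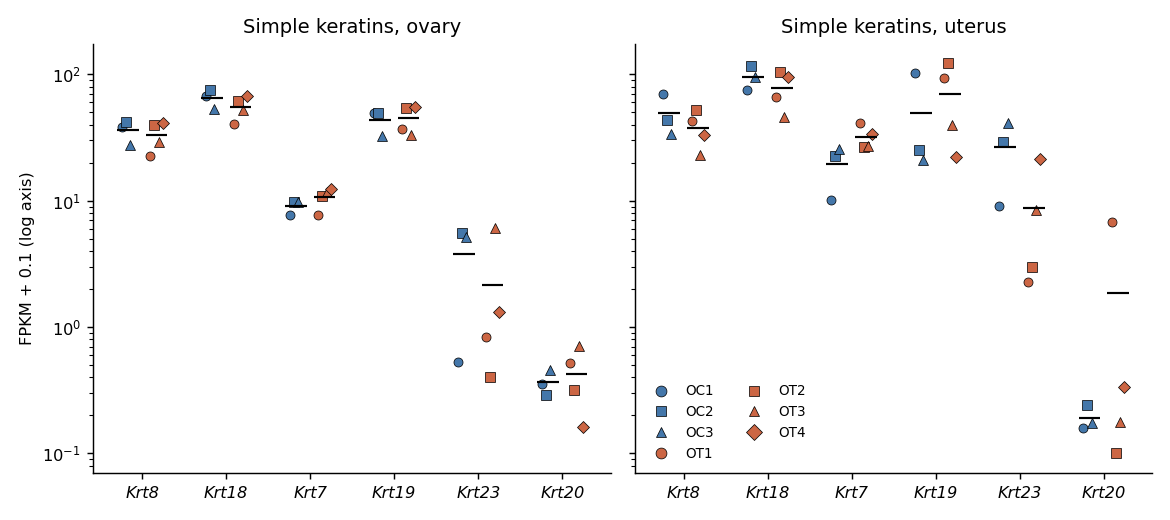
FPKM + 0.1 on a log axis for the 6 simple keratins in the ovary (left) and the uterus (right), with a symbol for each OC (blue) and OT (orange) library and the group mean as a black bar. Krt8 and Krt18 overlap between the groups in both tissues, Krt23 spreads widely in both, and Krt20 is high in the OT1 uterus alone, at 6.74 FPKM.

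Krt23 (chr11:99477974-99493137), a type I keratin of simple and glandular epithelium, was the keratin lower in OT uteruses. It measured 9.01, 29.1 and 41.3 FPKM in OC1 to OC3 and 2.19, 2.89, 8.39 and 21.5 FPKM in OT1 to OT4. OC1 was near OT3 and below OT4, so the groups overlapped. The log2 fold change was −1.90 ± 0.82 (SE), with an unadjusted p of 0.0499 and an adjusted p of 0.599 by limma, at the edge of the cutoff, and it lost the call in 10 of 17 alternatives. Without OC3 the log2 fold change was −1.45 and without OT1 −1.44, with unadjusted p of 0.162 and 0.109 by limma. Krt83 (chr15:101485130-101491512), a type II hair keratin, was the only member of its class with more than 3 FPKM. It measured 2.22, 6.44 and 8.54 FPKM in OC and 0.827, 1.51, 3.68 and 5.41 FPKM in OT uteruses, the same order as Krt23 within each group, and the log2 difference of −1.10 ± 0.68 (SE) did not pass. Of its 50-base stretches, 23.2% recur in other genes, mostly Krt86, which itself did not exceed 0.324 FPKM. Krt87, the neighbour of Krt7, measured 0.423 to 2.49 FPKM in OC and 0.664 to 2.22 FPKM in OT uteruses.

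The ovary libraries held Krt23 and Krt83 unevenly as well. Krt23 measured 0.424, 5.49 and 5.05 FPKM in the OC ovaries and 0.740, 0.304, 6.04 and 1.21 FPKM in OT1 to OT4, and Krt83 measured 0.160, 2.28 and 1.24 FPKM and 0.226, 0.273, 1.73 and 0.581 FPKM. Both were high in OC2, OC3 and OT3 and low in OC1, OT1 and OT2, with OT4 between them, so the division ran across the groups. The uterine Hox gene Hoxa11 and the endometrial gland protease Prss29, chosen after their values were seen, divided the ovaries alike. Hoxa11 was 14.7, 7.09 and 11.4 FPKM in OC2, OC3 and OT3 and 0.443, 0.0707 and 0.884 FPKM in OC1, OT1 and OT2. Prss29 was 15.4, 12.01 and 22.1 FPKM in the former and 0.850, 0.539 and 0.960 FPKM in the latter. In the uterus Prss29 was low in OC1, OT1 and OT2 too (0.891, 2.44 and 1.15 FPKM). Uterine Hoxa11 did not follow this division, since OC1 (64.4 FPKM) was near OC2 and OC3 (67.7 and 73.2 FPKM). It was 41.7, 43.6, 56.5 and 60.1 FPKM in OT1 to OT4. Whether uterine tissue was included in some ovary samples was not tested.

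**Figure D3:**
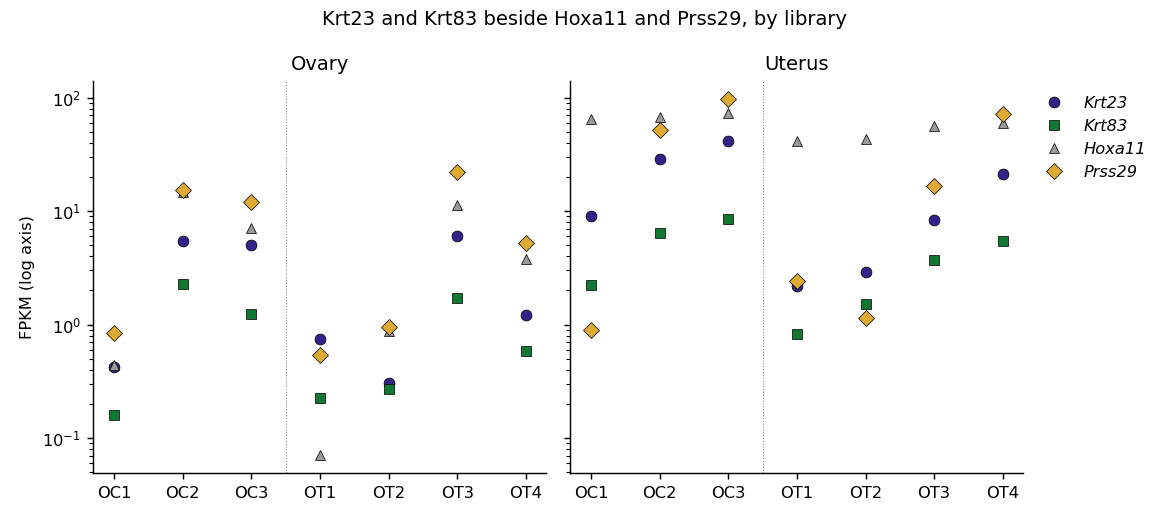
FPKM on a log axis of Krt23 and Krt83 beside Hoxa11 and Prss29 in each ovary (left) and uterus (right), with a dotted line between the OC and OT mice. In the ovary all 4 genes are higher in OC2, OC3 and OT3 than in OC1, OT1 and OT2, so the libraries divide across the groups.

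Summed over classes, the 6 simple keratins were 268, 236 and 216 FPKM in the OC uteruses and 251, 307, 143 and 206 FPKM in OT1 to OT4 (means 240 ± 26.0 FPKM, SD, n = 3, and 227 ± 69.2 FPKM, SD, n = 4). The 22 stratified keratins summed to 9.45, 21.6 and 11.2 FPKM in the OC uteruses and to 99.1, 53.1, 867 and 407 FPKM in OT1 to OT4. The lowest OT sum was thus above the highest OC sum, while the SD of the OT group (375 FPKM) exceeded its mean (357 FPKM, n = 4). As a share of all keratin, the stratified class was 3.37 to 8.11% in OC uteruses and 27.98, 14.6, 85.4 and 65.5% in OT1 to OT4. In OT3 and OT4 the stratified keratins therefore outweighed the simple ones, by 6.05 and 1.98 times, and in the other 5 uteruses they did not. The ratio of type II to type I keratin was 0.439 to 0.472 in OC uteruses and 0.632, 0.398, 0.707 and 0.771 in OT1 to OT4.

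**Figure D4:**
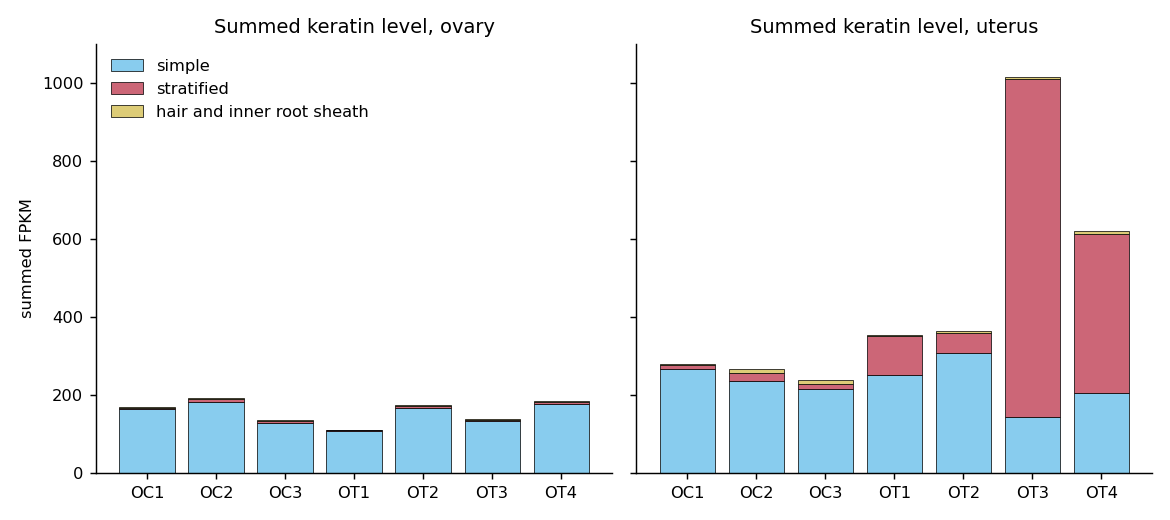
Summed FPKM of simple (blue), stratified (red) and hair or inner root sheath (yellow) keratins in each ovary (left) and uterus (right), stacked from 0 on a shared axis. The stratified share reaches 85.4% in the OT3 uterus and 65.5% in OT4, and is at most 4.13% in any ovary.

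In the ovary, the same comparison found no keratin past the cutoffs in either direction, where 0.368% of 14415 tested genes were higher and 0.0832% lower. No gene had an adjusted p under 0.05 by limma (650 had an unadjusted p under 0.05), and the unadjusted p of the 8 tested keratins ran from 0.205 to 0.901. Krt8 measured 38.6, 41.6 and 27.7 FPKM in the OC ovaries and 22.5, 39.5, 28.9 and 40.9 FPKM in OT1 to OT4. Krt18 measured 67.2, 75.4 and 53.2 FPKM and 40.2, 61.9, 51.8 and 67.2 FPKM. Both were lowest in OT1 and their log2 differences were −0.14 ± 0.22 and −0.25 ± 0.18 (SE). Krt19 measured 49.0, 49.0 and 32.7 FPKM in OC and 36.6, 54.0, 33.2 and 55.3 FPKM in OT ovaries, and Krt7 7.61, 9.75 and 9.63 FPKM and 7.55, 10.7, 11.6 and 12.3 FPKM. These 2 genes overlapped between the groups, with log2 differences of 0.03 ± 0.22 and 0.21 ± 0.18 (SE).

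Krt10 had a log2 difference of −0.80 ± 0.67 (SE) in the ovary, between 1.47 and 3.01 FPKM in OC and between 0.285 and 3.74 FPKM in OT. Krt80 measured 1.09 to 2.11 FPKM in OC and 1.11 to 1.64 FPKM in OT ovaries. The stratified keratins were near the smallest values the table holds for them. Krt5 was 0.0623, 0.127 and 0.0602 FPKM in the OC ovaries and 0, 0, 0 and 0.0650 FPKM in OT1 to OT4, Krt13 was 0.0782 to 0.307 FPKM, Krt14 0 to 0.545 FPKM, Krt15 0 to 0.400 FPKM and Krt4 0 to 0.103 FPKM. Krt6b was at 0 in all 7 ovaries, and Krt6a in 6 of them. The stratified class summed to 4.46 to 7.11 FPKM in OC and 2.35 to 6.15 FPKM in OT ovaries, mostly Krt10 and Krt80. Of the lists above, adipocyte genes alone had members past the cutoffs in the ovary, 5 of 8 higher, where 0.368% of all tested genes were higher.

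**Figure D5:**
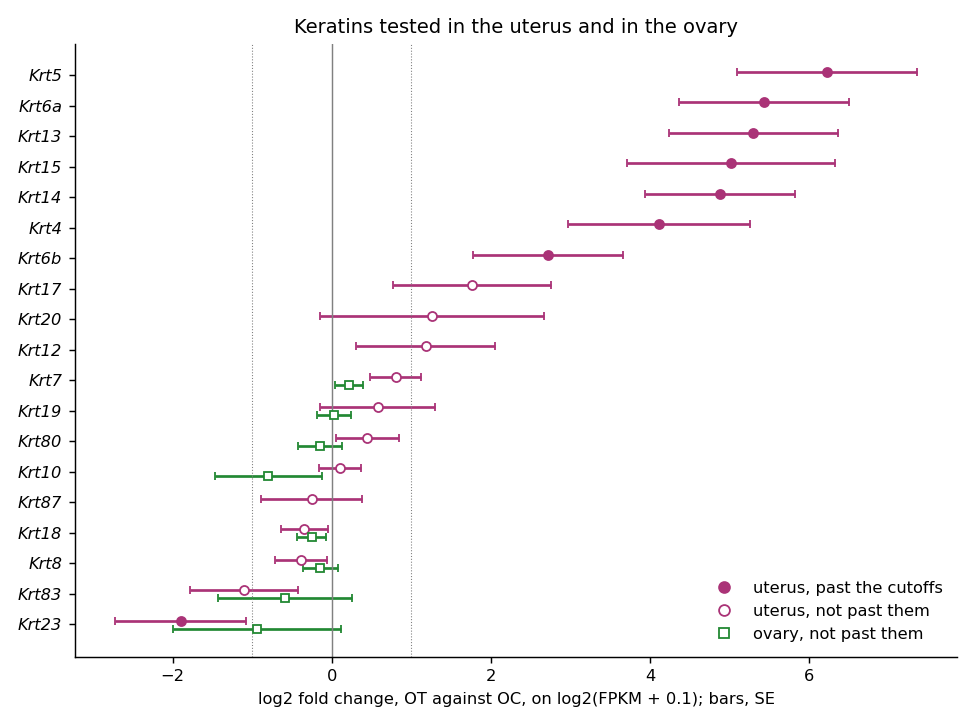
Log2 fold change of OT against OC with its SE, on log2(FPKM + 0.1), for the 19 keratins tested in the uterus (circles, filled when past the cutoffs) and the 8 also tested in the ovary (squares). Krt5 leads at 6.22 and Krt23 ends the order at −1.90, dotted lines mark a 2-fold change, and no ovary value passes.

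Whether the response differed between the tissues was tested as a difference of differences over all 14 libraries, in which 18 keratins passed the limit of 0.5 FPKM. The response of 6 of the 53 members was higher in the uterus at the cutoffs, as for 1.28% of the 14557 genes tested, and that of none was lower (0.556% of genes). The difference in log2 response was 6.90 ± 1.29 (SE) for Krt5, 5.80 ± 1.25 for Krt6a, 5.47 ± 1.54 for Krt15, 5.31 ± 1.23 for Krt13, 4.58 ± 1.26 for Krt14 and 3.88 ± 1.34 for Krt4. Their unadjusted p ran from 0.000124 to 0.0121 and the adjusted p from 0.361 to 0.844 by limma, and none of the 14557 genes was under 0.05 after adjustment (746 had an unadjusted p under 0.05). For the 6 simple keratins the unadjusted p was at least 0.163, and Krt23 fell short as well, at −0.96 ± 1.49 (SE). These values share the libraries of the comparisons within tissues. The 6 keratins called had means under 0.5 FPKM in the ovary and passed the limit through the uterus, so a difference was built into their selection. Their ovary response rested on values near 0. Krt5 was at 0 to 0.127 FPKM in the ovaries, and its log2 fold change in the uterus alone was 6.22. Without the limit, the response of 7 of the 53 members and of 1.18% of all 21853 genes was higher in the uterus.

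Between the organs themselves, 18 of the 53 keratins were tested. Of the 53 members, 13 were higher in the uterus at the cutoffs and none was lower. Among all 14557 genes tested, 10.2% were higher and 9.67% lower. Only 8 of the 18 reached the limit of 0.5 FPKM in the ovary. The others entered the test through their uterus values, so that a difference was built into their selection. Without the limit, 16 of the 53 members were higher in the uterus and 2 lower, against 7.53% and 8.55% of all 21853 genes. With Krt18 (log2 difference 0.49 ± 0.19 SE, adjusted p = 0.0418 by limma), 14 of the 53 had an adjusted p under 0.05, where 52.9% of all genes tested did. The 3 whose values did not overlap between the organs were Krt5 (5.77 ± 0.64), Krt13 (5.26 ± 0.62) and Krt80 (1.58 ± 0.25), where 11.5% of all genes had every uterus above every ovary. Krt80 was 1.09 to 2.11 FPKM in the ovaries and 2.204 to 7.59 FPKM in the uteruses. Krt7 was 7.55 to 12.3 FPKM in the ovaries and 10.1 to 40.8 FPKM in the uteruses (1.30 ± 0.20, adjusted p = 0.000111 by limma), and overlapped through OC1. Krt23 was higher in the uterus by 2.69 ± 0.75 and Krt83 by 2.18 ± 0.59 (SE), each with overlap. Krt8 (0.28 ± 0.22), Krt19 (0.09 ± 0.41) and Krt20 (−0.33 ± 0.78) did not pass, and the main simple keratins were thus found in the libraries of both organs. The 7 oviduct genes summed to 618 to 925 FPKM in the OC and 486 to 1008 FPKM in the OT ovary libraries. In the uteruses they summed to 65.8 to 188 FPKM in OC and 9.08 to 112 FPKM in OT. The part of oviduct tissue in the keratin levels of the ovary libraries was not tested. Restricted to the 3 OC mice, 7 keratins passed the cutoffs as higher in the uterus (Krt5, Krt7, Krt13, Krt23, Krt80, Krt83 and Krt87), and Krt4, Krt6a, Krt10, Krt14, Krt15 and Krt17 did not.

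As keratins are made in pairs, the ratio of partners was taken in each library, as a description. Krt8 per Krt18 was 0.521 to 0.638 in the 7 ovaries and 0.348 to 0.925 in the uteruses, where OC1 held the highest ratio. Krt5 per Krt14 was 4.07, 4.41, 4.97 and 6.14 in OT1 to OT4, a narrow range beside the 25.5-fold range of Krt5 itself, and 1.40 to 3.84 in the OC uteruses. Krt4 per Krt13 was 0.0636 to 0.0976 in the OT uteruses, so that the type I partner was far in excess. Krt6a per Krt5 was 0.106 to 0.187 in the OT uteruses. Krt5 per Krt15 was uneven by contrast, at 13.1, 2.76, 2.13 and 3.45 in OT1 to OT4, and Krt5 per Krt13 ran from 0.598 to 1.25 with the lowest value in OT2.

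The genes whose pattern over the 7 uteruses was most like that of a keratin were ranked by Pearson's r of log2(FPKM + 0.1), which is descriptive, since 7 points share the same tissue make-up. For Krt5 the closest non-keratin genes were Adam28 (r = 0.991), Il33 (0.987), Olfm4 (0.972), Urm1 (0.969) and S100a14 (0.966). Olfm4 was 0.513, 3.23 and 0.130 FPKM in the OC uteruses and 8.37, 6.59, 47.2 and 22.1 FPKM in OT1 to OT4. Within the family, Krt6a (0.996), Krt14 (0.993), Krt13 (0.986), Krt4 (0.961) and Krt15 (0.9498) were closest to Krt5, and Krt8 lay at the far end (−0.632). For Krt8 the closest non-keratin genes were Vps11 (0.959), Ccdc66 (0.9495), Lipa (0.947), Zfp260 (0.944) and Zfp24 (0.944). Their levels varied less than that of Krt8, with Vps11 at 13.5 to 16.5 FPKM and Lipa at 26.9 to 39.2 FPKM in the 7 uteruses. Krt83 was the keratin nearest to Krt23 (0.973), and Krt19 the farthest from it (−0.888).

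In genome order, keratins with different values stood side by side. On chromosome 11, Krt13, Krt15, Krt19, Krt9, Krt14, Krt16, Krt17 and Krt42 follow each other. Krt13, Krt15 and Krt14 passed the cutoffs, Krt19 between them did not, and Krt9 and Krt42 were at 0 in all uteruses. On chromosome 15, Krt6b, Krt6a and Krt5 are consecutive and all passed, with 9.62 and 12.8 kb between them, whereas Krt75 on the one side did not exceed 0.0443 FPKM and Krt71 on the other 0.0624 FPKM in the uterus. Krt4 stands between Krt76 (at most 0.0673 FPKM) and Krt79 (at most 0.803 FPKM, in OT1). Krt14 shares 14.4% of its 50-base stretches with other genes, mostly Krt16, Krt5 8.52%, mostly with Krt6a, and Krt13, Krt4 and Krt7 none. These are exact matches to GENCODE transcripts, and near matches or other parts of the genome were not searched.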

How the data were processed

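RNA-seq values of 14 libraries (ovary and uterus of 3 OC and 4 OT mice) were analysed, grouped by their labels. Per the labels and the study's methods, the authors trimmed the reads with Skewer, mapped them to mm10 with STAR 2.5 and quantified them with Cufflinks 2.2.1, and the deposited values are FPKM per protein-coding gene, not scaled further here. Symbols and positions came from GENCODE M21 (GRCm38), in which all 21853 identifiers were found. The depth is unknown, and whole fragments could not be recovered.

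Genes whose mean over the fitted libraries reached 0.5 FPKM were tested with limma 3.58.1 in R 4.3.3 (lmFit, eBayes with a trend) on log2(FPKM + 0.1), which understates the change of low genes. The cutoffs were the study's, a 2-fold change and an unadjusted p of at most 0.05. Benjamini-Hochberg adjustment ran over all tested genes. No test was made of lists or summed levels. Replicates are separate mice. Same-numbered OC and OT mice were not treated as paired in the main tests. The ovary and uterus of a mouse were matched by library name, which is inferred. Their deviations from the group means had a mean r of 0.141 (range 0.074 to 0.254). For unmatched libraries the mean was −0.054 (range −0.235 to 0.248), so the ranges overlapped. Removing the group means ties the matched and unmatched r to each other, so the contrast is a description only. The steps were tested on simulated uterus libraries, with normal noise and a log2 change of 2 in 200 genes of at least 1 FPKM. At the cutoffs, 98% of these were recovered among 14125 tested. The simulation does not give the recovery of lower genes or of smaller changes. Sums, ratios and sequences were handled with pandas 2.3.3 and numpy 2.4.6 (Python 3.11.15) and plotted with matplotlib 3.10.9.

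The members, the classes of keratins and the lists were chosen with earlier results of these data known. Members with a mean of at least 0.5 FPKM in a tissue were named, with every library's value for Krt5, Krt14, Krt8, Krt18, Krt7, Krt19 and those past the cutoffs. At most 4 genes were named per list, by size of change. In the lists of general and endometrial epithelium, 1 gene is not reported here and was left out of the counts and medians. Hoxa10, Hoxa11, Hoxa13, Prss29, Upk2 and Upk3a were picked only once their values had been seen. Promoters were taken from RefSeq, with entries for 36 of the 53 members, 1 of them with 2 entries. Shared sequence was counted in 50-base stretches of the GENCODE transcripts. The alternatives were other pseudocounts and filters, TPM, quantile normalization, robust eBayes, a replicate block, a joint fit and leaving out replicates.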

Additional observations from a re-analysis of the deposited data

Results flagged for a closer look

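The Krt20 level of the OT1 uterus, 6.74 FPKM, stood far from the other 3 OT uteruses, which were at 0 to 0.236 FPKM. It is given above beside the uroplakins of the same library. The Krt23 level of the OT3 ovary, 6.04 FPKM, stood far from the other 3 OT ovaries, the next being OT4 at 1.21 FPKM, although 2 of 3 OC ovaries lay near it. Such a gap was looked for in 31 groups of 4 OT libraries (27 tested keratin levels and 4 summed levels). Chance alone would mark about 1 in 20 if the values were independent and normally spread, which was not tested. No keratin had a difference in response between the tissues with an adjusted p under 0.05 by limma.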

How the results depend on the processing

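The 6 keratins whose uterus groups did not overlap at 2-fold or more (Krt4, Krt5, Krt6a, Krt13, Krt14 and Krt15) kept their direction and their call in every alternative, except Krt4 without OT3 and OT4. None of the alternatives turned the direction of a called keratin. Krt6b lost its call with a pseudocount of 1 and with the replicate block, and was under the limit of 0.5 FPKM in 5 alternatives. Of the keratins not called in the uterus, Krt83 was called without OC1, Krt12 without OC2, Krt7 without OC3 and Krt17 without OT1. For the difference between tissues, Krt4 lost its call without OC1 and with a pseudocount of 0.01, and Krt10 without OT4 and Krt12 without OC2 gained one. Between the organs, Krt10 and Krt17 lost theirs without OC1, and Krt10 also without OT1, while Krt12 was called without OC1 and with quantile normalization. A pseudocount of 1 ended the calls of Krt10, Krt17 and Krt87 there, and TPM that of Krt10.

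The uterus keratin called lower, Krt23, was lost (0 keratins) with a pseudocount of 0.01, no filter, a mean of at least 1 FPKM, robust eBayes and the joint fit of 14 libraries, and 2 were called (Krt83 added) without OT3 and OT4. Leaving out 1 mouse gave 0 to 2 keratins lower and 6 to 8 higher. The genes called in the uterus, 410, became 259 with a pseudocount of 1 and 810 without OT3 and OT4. At an adjusted p under 0.05 by limma, the uterus had 9 genes without the filter, 46 genes and 4 keratins in the joint fit, and 0 to 2 genes leaving out 1 mouse. In the ovary, the genes called, 65, became 18 with a pseudocount of 1, 116 without the filter and 42 with a mean of at least 1 FPKM, and were 51 to 137 leaving out 1 mouse, the highest without OT3. Keratins called lower there were 0 to 1 (Krt10, without OT4), and genes with an adjusted p under 0.05 were 5 without the filter and 0 to 1 leaving out 1 mouse. For the difference between tissues, 267 genes called became 134 with a pseudocount of 1. Its genes with an adjusted p under 0.05 were 3 without the filter and 0 to 8 leaving out 1 mouse, with 0 to 2 keratins (Krt5 and Krt6a, without OT2). Between the organs, 7 keratins were called higher and 5 had an adjusted p under 0.05 with OC libraries only, and 2 (Krt75 and Krt79) were called lower without the filter. Apart from the fewer genes or libraries that an alternative leaves, the cause was not tested.

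The labels name no pairs of OC and OT mice, so their replicate numbers were not used as pairs in the main tests. The r of same-numbered uteruses was 0.025 to 0.057 (mean 0.041, against −0.020 for other numbers). For same-numbered ovaries it was 0.069 to 0.332 (mean 0.162, against −0.082 for other numbers). Whether mice of one number shared a batch was not tested. With the replicate block, which leaves out OT4, 666 genes were called in the uterus with 2 keratins lower (Krt23 and Krt83), and 103 in the ovary with 1 keratin lower (Krt10). The block by mouse added Krt12 to the calls of both comparisons of the organs and changed no other keratin call. The unknown depth and 3 to 4 mice per group limit what could be seen of low members.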

Other observations

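Several keratins under the limit of 0.5 FPKM differed between the libraries and were left out of the tests above, except where the limit was lifted. Krt75, a keratin of the hair companion layer, was found in all 7 ovaries at 0.0778 to 0.196 FPKM and in the uterus in OT3 alone, at 0.0443 FPKM. Krt79, made in the ducts of hair follicles and sebaceous glands, was 0.126 to 0.573 FPKM in the ovaries and 0 to 0.803 FPKM in the uteruses, where OT1 was the highest. Krt73 was seen in 5 ovaries at 0.0630 to 0.226 FPKM and in no uterus. The hair keratin Krt33b was listed above 0 in the OT3 (0.374 FPKM) and OT4 (0.164 FPKM) uteruses alone. Krt222, a keratin-like gene, measured 0.0418 to 0.211 FPKM in the OC uteruses and 0.863, 0.382, 0.115 and 0.477 FPKM in OT1 to OT4. With no limit on low values, Krt1, Krt79 and Krt84 joined the 7 keratins called higher in the OT uteruses.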
